A study of Rattus norvegicus with 6 samples.

Results

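The genes described here encode the proteins of the small ribosomal subunit, measured by RNA sequencing in cells grown from rat amniotic fluid. They were chosen by name, as rows called Rps with a number and one of a few suffixes, together with Rpsa and Fau, and 36 of the 22085 genes of the table were found. The fluid was taken on embryonic day 18.5 from control pregnancies (3 libraries) and from a rat model of preeclampsia (3 libraries), a disorder of pregnancy with maternal hypertension, and the cells were sequenced after 4 passages in culture with fetal bovine serum, controls included. The sources used here do not give the strain, the age of the animals, how the model was induced or whether fluid was pooled, so p-values measure the spread between these libraries. Values are listed in the order of libraries 1, 2 and 3 of a group. The labels call the cells mesenchymal stem cells, and all 8 mesenchymal markers checked, such as Thy1 and Col1a1, stood at 1 FPKM (fragments per kilobase, scaled to the size of the library) or more in every library. So did all 4 smooth muscle markers, 5 of 8 macrophage and blood markers and 1 of 4 mesothelial markers, but 0 of the epithelial, endothelial and erythroid markers.

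A ribosome translates messenger RNA with a small subunit, which binds the message and matches codons to transfer RNAs, and a large subunit, which joins the amino acids. The small subunit is built from ribosomal RNA and a fixed set of proteins that form a head, a body and a platform. In mammals the mRNAs of these proteins share a run of pyrimidines at the 5′ end, the terminal oligopyrimidine motif, through which the kinase mTOR and the RNA-binding protein Larp1 control their translation. Of the 36 rows, 13 encode proteins of the head, 18 encode proteins of the body and platform, and 5, Rps10l1, Rps18l1, Rps19l1 and Rps27l among them, are further copies or paralogs. The row named Rps9l1 carries the gene identifier that RefSeq names Rps9, and it is counted with the body. The row with the identifier of Rps19, a head protein, is named Rps19l2 in the table and fell outside the rule, so its values are given apart.

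Nearly all of the small subunit genes had higher fitted levels in the preeclampsia group, by a similar and modest amount, and none passed the test of single genes. Of the 34 that could be tested, 33 had a log2 fold change above 0 (97.1%), against 51.7% of the 15776 genes tested. Their median log2 fold change was 0.37, a ratio of 1.29, against 0.01 for all genes tested, and 29 lay between 0.25 and 0.55. The members together took 0.515%, 0.593% and 0.630% of all counts in the controls. They took 0.769%, 0.753% and 0.707% in the preeclampsia libraries, so that each preeclampsia library stood above each control library. A change in the mix of cells and a change in RNA per cell cannot be told apart in such bulk samples.

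By edgeR's quasi-likelihood test with Benjamini-Hochberg adjustment over all genes, 0 of the 34 were called (background 0% of all genes tested), the adjusted p running from 0.397 for Rps26 to 0.965 for Rps27l. At an unadjusted p under 0.05 there were 23 members, all higher, where 4.13% of all genes were higher at that level and 9.19% differed in either direction. With 1 library left out, that count was 9 for control 1, 13 for control 2 and 19 for control 3. It was 15 for preeclampsia 1, 11 for preeclampsia 2 and 18 for preeclampsia 3. Each of these fits had fewer libraries and so less power to reach that level, whichever library was left out. DESeq2, run on the same counts, called 6 members, Rps26, Rps4x, Rps24, Rps3a and Rps18 among them, all higher, where it called 1.03% of all genes higher and 2.33% in either direction. In 24 of the 36 genes all 3 preeclampsia FPKM values lay above all 3 control values (66.7%), which was so in 6.15% of all genes tested, and in no member were they all below. Groups were apart in either direction in 14.5% of all genes tested.

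**Figure D1:**
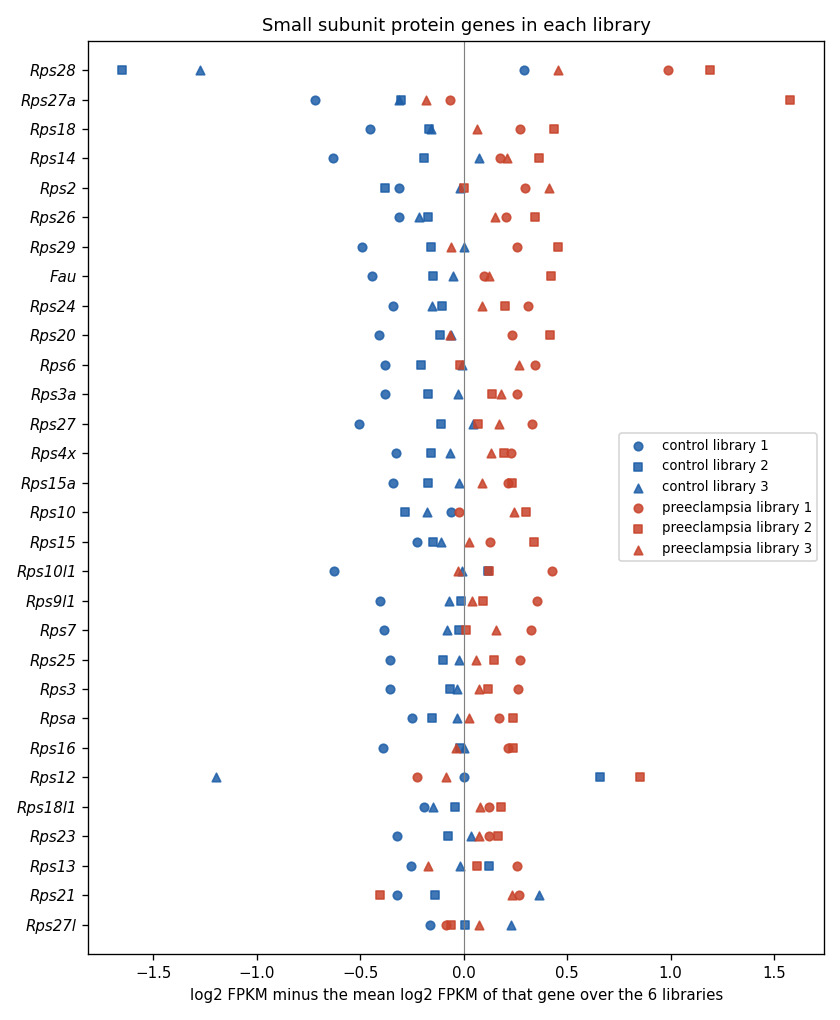
Each row is 1 of 30 of the 34 tested genes, ordered by fold change, and each point is 1 library, placed at its log2 FPKM minus that gene's mean over the 6 libraries. Control libraries (blue) lie mostly left of 0 and preeclampsia libraries (red) mostly right, and Rps28, Rps27a and Rps12 scatter more widely than the rest.

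The order of the libraries was much the same from gene to gene. Control library 1 was the lowest of the 6 in 29 of the 36 genes. The highest was preeclampsia library 2 in 17 and preeclampsia library 1 in 15. Relative to each gene's own mean, the median member stood at -0.36, -0.12 and -0.03 on the log2 scale in the controls, over the 34 tested genes. In preeclampsia libraries 1 to 3 it stood at 0.25, 0.20 and 0.07. The gap between control library 3 and preeclampsia library 3 was thus smaller than the range within the control group. After this common profile was subtracted, 30 of the 34 genes stayed within 0.34 log2 units of it in every library, while Rps28, Rps27a, Rps12 and Rps21 departed from it by more than 0.5.

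Markers of cell types varied between libraries in several ways. The 8 mesenchymal markers summed to between 5632 and 6667 FPKM in the control libraries and between 6586 and 9595 FPKM in the preeclampsia libraries, with none at 0. Among them the matrix genes Dcn, Lum and Col1a2 were higher in each preeclampsia library than in each control. In the others, Col1a1, Thy1, Cxcl12, Vim and Pdgfrb, the groups overlapped. Dcn stood at 20.2, 63.9 and 7.19 FPKM against 177, 241 and 132 FPKM, and Lum at 64.8, 111 and 40.8 FPKM against 226, 442 and 595 FPKM. The 8 macrophage and blood markers, also with none at 0, summed to between 19.9 and 129 FPKM in the controls and between 22.4 and 321 FPKM in the preeclampsia group. The 4 smooth muscle markers summed to 2174, 540 and 1250 FPKM in the controls and to between 584 and 857 FPKM in the preeclampsia group. Control library 1, the highest, had the lowest ribosomal protein levels. Control library 3 was above control library 2 both in these markers and in the members' share of counts (0.630% against 0.593%). The 5 epithelial markers summed to between 3.93 and 55.03 FPKM in the controls and between 0.45 and 1.56 FPKM in the preeclampsia group. The highest sum, in control library 2, was mostly Krt8 (37.4 FPKM) and Krt18 (17.15 FPKM). Of the single markers only Krt18 was lower in each preeclampsia library than in each control, while Krt8, Krt19, Cdh1 and Epcam were not. Epcam, Krt18, Krt19 and Cdh1 were at 0 in at least 1 library. The 4 mesothelial markers, none at 0, summed to between 2.76 and 13.8 FPKM in the controls and between 15.7 and 29.5 FPKM in the preeclampsia group. Msln alone set the groups apart, at 1.06, 2.03 and 1.76 FPKM against 17.02, 11.8 and 20.9 FPKM, while Upk3b, Wt1 and Lrrn4 overlapped. The 4 endothelial markers stayed at or below 3.71 FPKM in sum, with Pecam1 at 0 in some, and the erythroid genes Hbb and Alas2, the only 2 of 3 in the table, at or below 0.13 FPKM. The part of these cells in the ribosomal protein levels was not tested.

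In the body and platform, the gene with the smallest p was Rps26, whose protein sits near the exit of the mRNA channel. It stood at 48.1, 53.1 and 51.6 FPKM in the controls and at 68.9, 75.8 and 66.3 FPKM in the preeclampsia libraries. The groups did not overlap, and the log2 fold change was 0.49 (SE 0.11, edgeR adjusted p = 0.397). The gene lies on chromosome 7 from 1057332 to 1058882 in the table's coordinates. Rps24, a body protein gene mutated in some patients with Diamond-Blackfan anaemia, stood at 74.2, 87.4 and 84.7 FPKM in the controls and at 117, 108 and 100.2 FPKM in the preeclampsia libraries (0.42, SE 0.11). Rps4x, the X-linked gene of a body protein, stood at 57.0, 64.2 and 68.2 FPKM in the controls and at 83.8, 81.9 and 78.2 FPKM in the preeclampsia libraries (0.39, SE 0.11). Both were again apart between the groups, with adjusted p values of 0.441 and 0.453 by edgeR.

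Rps3a, which encodes a platform protein, had the highest deposited FPKM of the members, at 1482, 1709 and 1890 in the controls and 2307, 2120 and 2184 in the preeclampsia libraries (0.40, SE 0.12, edgeR adjusted p = 0.458). Rpsa encodes a subunit protein that is also known as a laminin receptor precursor at the cell surface. It stood at 1072, 1147 and 1248 FPKM in the controls and at 1435, 1506 and 1297 FPKM in the preeclampsia libraries (0.31, SE 0.13, edgeR adjusted p = 0.541). Rps7, another body protein gene, stood at 464, 596 and 572 FPKM in the controls and at 758, 610 and 675 FPKM in the preeclampsia libraries (0.34, SE 0.13). In these 3 genes the groups were apart, though in Rps7 the lowest preeclampsia value lay just above the highest control value.

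Rps14, a platform protein gene whose loss causes anaemia in the 5q- syndrome, stood at 220, 299 and 359 FPKM in the controls and at 385, 439 and 394 FPKM in the preeclampsia libraries (0.50, SE 0.18). Rps6 encodes the protein that S6 kinases phosphorylate downstream of mTOR. It stood at 356, 402 and 460 FPKM in the controls and at 588, 458 and 557 FPKM in the preeclampsia libraries (0.42, SE 0.14), and here preeclampsia library 2 lay just below control library 3. Fau encodes a ubiquitin-like protein fused to a small subunit protein, from which it is cleaved. Fau stood at 94.7, 116 and 124 FPKM in the controls and at 138, 172 and 140 FPKM in the preeclampsia libraries (0.45, SE 0.15), with no overlap. Adjusted p values by edgeR were 0.478 for Rps14 and 0.473 for both Rps6 and Fau. Over the body and platform, all 18 genes had a log2 fold change above 0, with a median of 0.38 and a lowest value of 0.09 in Rps21, and DESeq2 called 5.

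In the head, Rps18 had the smallest p. Rps18, whose protein lies where the head meets the large subunit, stood at 131, 160 and 161 FPKM in the controls and at 217, 244 and 188 FPKM in the preeclampsia libraries (0.54, SE 0.14, edgeR adjusted p = 0.441). The groups did not overlap. Rps3, which lines the mRNA entry channel and also takes part in DNA repair, stood at 158, 193 and 198 FPKM in the controls and at 243, 219 and 213 FPKM in the preeclampsia libraries (0.32, SE 0.11, edgeR adjusted p = 0.481). The row of Rps19, the gene most often mutated in Diamond-Blackfan anaemia, stood at 141, 180.1 and 191 FPKM in the controls and at 181, 219 and 192 FPKM in the preeclampsia libraries (0.24, SE 0.15, edgeR adjusted p = 0.708), with overlapping groups. With this row added, all 14 head genes had a log2 fold change above 0, with a median of 0.37, and DESeq2 called 1.

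Of the other body genes, Rps2, Rps9l1, Rps15a and Rps23 had log2 fold changes from 0.26 in Rps23 to 0.49 in Rps2, and in each of these 4 the groups were apart. Rps2 encodes a protein that lies at the mRNA entry. In the head, Rps15, Rps16, Rps20, Rps25 and Rps29 had log2 fold changes from 0.29 in Rps16 to 0.46 in Rps29, and Rps16, Rps20 and Rps29 overlapped. Rps25 is known for its part in initiation at viral internal ribosome entry sites.

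Grouped by evolutionary age, the 15 proteins shared with bacteria had a median log2 fold change of 0.35 and the 17 found only in eukaryotes and archaea one of 0.39. All genes of both groups were above 0, with the rows of Rps9 and Rps19 included. Rack1, a scaffold protein that binds the head of the small subunit, stood at 241, 264 and 273 FPKM in the controls and at 349, 329 and 319 FPKM in the preeclampsia libraries. Its log2 fold change of 0.38 (SE 0.11, edgeR adjusted p = 0.458) was close to the median of the small subunit genes, and DESeq2 called it. The difference between these groups of genes was not tested.

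**Figure D2:**
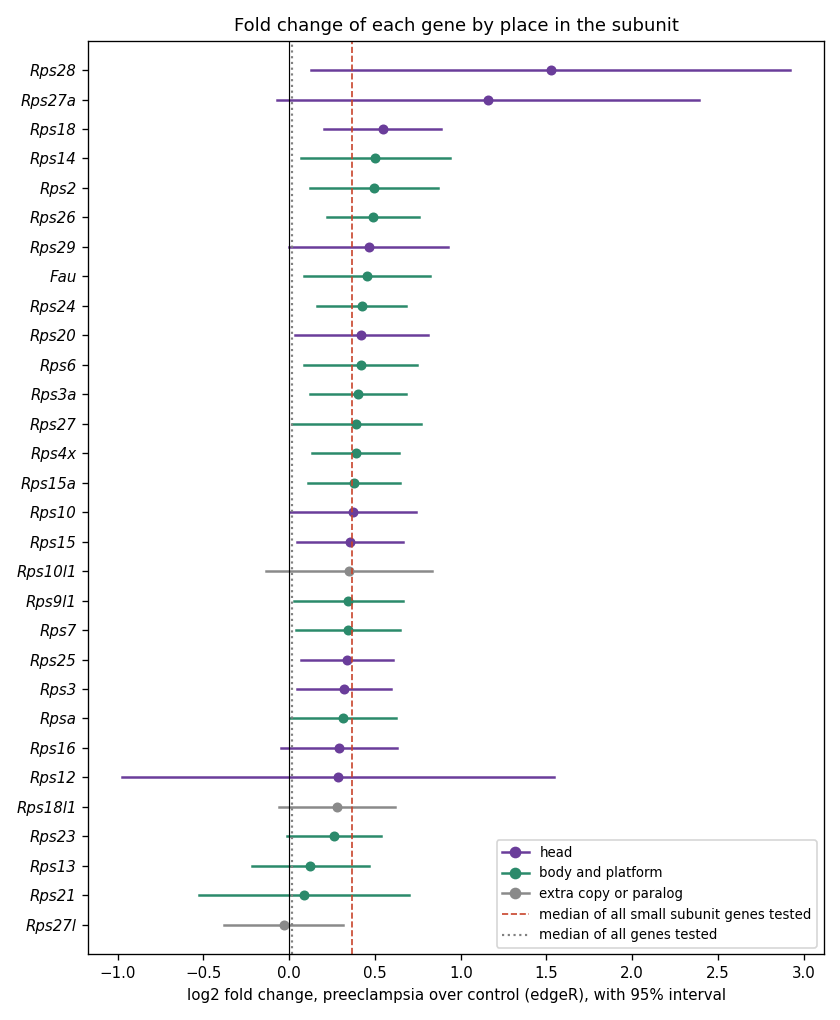
Points are edgeR log2 fold changes of preeclampsia over control with 95% intervals for 30 of the 34 tested genes, coloured by place in the subunit, and the dashed and dotted lines are the medians of the 34 genes (0.37) and of all genes tested (0.01). Rps27l alone lies below 0, and the intervals of Rps28, Rps27a and Rps12 are the widest.

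The 2 highest fold changes rested on low counts or on 1 library. Rps28, whose small protein contacts the mRNA near the exit channel, was listed at 2.69, 0.70 and 0.91 FPKM in the controls and at 4.37, 5.02 and 3.02 FPKM in the preeclampsia libraries. These values rest on 280, 76 and 99 counts and on 478, 626 and 307 counts. The log2 fold change was 1.52 (SE 0.58, edgeR adjusted p = 0.509) and became 2.41 without control library 1. Rps27a encodes ubiquitin fused to a small subunit protein, and so supplies both. It stood at 21.3, 28.4 and 28.2 FPKM in the controls and at 33.5, 105 and 30.9 FPKM in the preeclampsia libraries. Preeclampsia library 2 alone stood far above the other 5, with 8766 counts where they had between 1492 and 2454. The log2 fold change of 1.16 (SE 0.51, edgeR adjusted p = 0.569) became 0.31 (SE 0.15) without it, near the median of the other members.

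The smallest differences were in Rps21, Rps27l and Rps13. Rps21 encodes a small protein of the body and stood at 15.7, 17.8 and 25.2 FPKM in the controls and at 23.6, 14.8 and 23.1 FPKM in the preeclampsia libraries (0.09, SE 0.25, edgeR adjusted p = 0.943). Its fold change was -0.02 without control library 1, -0.00029 without preeclampsia library 1 and -0.01 without preeclampsia library 3. Rps13 had a log2 fold change of 0.12 (SE 0.14). In all of these genes the groups overlapped.

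Rps27 and Rps27l encode close paralogs, either of which can take the same place in the subunit. Rps27 stood at 33.8, 44.4 and 49.5 FPKM in the controls and at 60.3, 50.3 and 54.0 FPKM in the preeclampsia libraries (0.39, SE 0.16, edgeR adjusted p = 0.530). Rps27l stood at 15.9, 17.8 and 20.8 FPKM in the controls and at 16.7, 17.0 and 18.7 FPKM in the preeclampsia libraries (-0.03, SE 0.14, edgeR adjusted p = 0.965). Rps27 was apart between the groups and Rps27l overlapped throughout. With the counts of 4 other rows annotated to the Rps27 protein added to it, Rps27 stood at 27.9 CPM (counts scaled to the library total, without regard to length) in control library 3 and 27.2 in preeclampsia library 2, so that the groups then overlapped.

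The log2 ratio of Rps27l to Rps27 within a library does not depend on how libraries are scaled. It was -1.09, -1.31 and -1.25 in the controls and -1.85, -1.57 and -1.53 in the preeclampsia libraries. All 3 preeclampsia values lay below all 3 control values, the means being -1.22 ± 0.12 and -1.65 ± 0.18 (SD, n = 3 each) and their difference -0.43. The exact two-sided permutation p was 0.1, the smallest that 3 against 3 libraries can give.

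**Figure D3:**
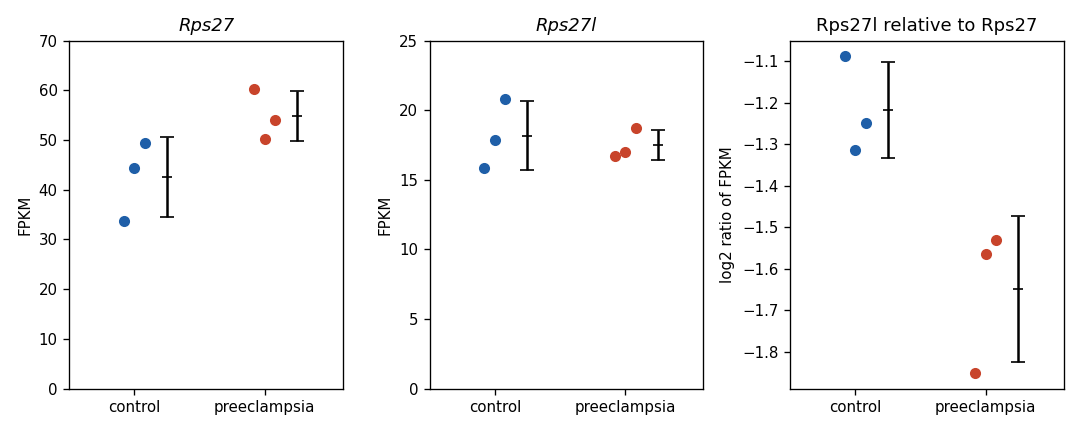
FPKM of Rps27 and Rps27l and the log2 ratio of Rps27l to Rps27 in each library (points), with the mean and SD of each group (bars, n = 3). Rps27 is higher in each preeclampsia library, Rps27l overlaps, and the ratio runs from -1.31 to -1.09 in the controls and from -1.85 to -1.53 in the preeclampsia group.

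The annotated start sites of these genes show the sequence feature for which ribosomal protein genes are known. Of the 36 members, 25 matched by gene identifier to the RefSeq promoter table of build GRCr8, with 26 promoters. A run of at least 8 pyrimidines (C or T) touching the 5 bases on either side of the start was present on the coding strand in 16 of the 26 (61.5%), against 8.67% of all 33469 promoters in the table. The letters CTTCCG, on either strand, were in 15 of the 26 promoter windows of 300 bases (57.7%) against 16.6% of all, and GGGCGG was also in 15 (57.7%) against 33.1%. CTTCCG can overlap a pyrimidine run. The letters AAGATGGC were in 3 (11.5%) against 3.17%, and TATAAA in 3 (11.5%) against 14.2%. The windows below run from 35 bases before the annotated start to 25 bases from it on, for Rpsa, Rps3a and Rps7, the members with the highest FPKM, for head and body genes described above, and for Rps28 and Rps27l at the ends of the range of fold changes. Capitals mark a pyrimidine run of at least 8 bases that touches the 5 bases on either side of the start, and runs elsewhere in a window are not marked.
Rpsa (chr8:128728844-128728903, plus strand): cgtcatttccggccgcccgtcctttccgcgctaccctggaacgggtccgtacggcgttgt
Rps3a (chr2:173827018-173827077, minus strand): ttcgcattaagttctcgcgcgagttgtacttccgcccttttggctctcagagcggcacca
Rps7 (chr6:50999421-50999480, minus strand): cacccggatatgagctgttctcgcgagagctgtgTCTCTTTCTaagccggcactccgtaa
Rps15 (chr7:10068091-10068150, minus strand): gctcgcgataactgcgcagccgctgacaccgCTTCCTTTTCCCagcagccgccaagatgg
Rps18 (chr20:4933710-4933769, plus strand): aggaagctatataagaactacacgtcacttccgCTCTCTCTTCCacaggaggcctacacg
Rps26 (chr7:1643380-1643439, minus strand): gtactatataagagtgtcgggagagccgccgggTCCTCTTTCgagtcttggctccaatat
Rps28 (chr7:15311309-15311368, minus strand): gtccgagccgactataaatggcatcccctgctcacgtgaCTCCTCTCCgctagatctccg
Rps27l (chr8:76443623-76443682, plus strand): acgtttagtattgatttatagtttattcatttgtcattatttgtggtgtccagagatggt
Rps7, Rps15, Rps18, Rps26 and Rps28 hold such a run, of 9 to 12 bases. The run at the annotated start is shorter in Rps3a (7 bases), Rpsa (4 bases) and Rps27l (3 bases), the tested member with a fitted log2 fold change below 0. Runs of 1 to 3 bases were also found in Rps12, Rps6, Rps16 and Rps3, with log2 fold changes of 0.28, 0.42, 0.29 and 0.32. Rps21 and Rps13, with low fold changes of 0.09 and 0.12, had runs of 10 bases. Annotated starts can lie away from the start used in these cells, and the link of these letters to the levels was not tested.

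Ribosomal protein genes have many processed copies in the genome, and reads can be divided between them. Rows that shared a KEGG orthology number with the members formed 32 protein families, which held 120 further rows. In 12 families these further rows held over 10% of the counts, 1 of them the family of Rps19, whose main row is among the 120. Rps12 encodes a protein of the beak of the head. Its row stood at 66.4, 105 and 28.9 FPKM in the controls and at 56.8, 120 and 62.4 FPKM in the preeclampsia libraries, with overlapping groups and a log2 fold change of 0.28 (SE 0.52, edgeR adjusted p = 0.911). This was -0.08 without control library 3 and -0.17 without preeclampsia library 2.

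The Rps12 row held 44.0%, 51.9% and 14.5% of the counts of its family in the controls and 23.4%, 43.1% and 29.3% in the preeclampsia libraries. In control library 3, where the Rps12 row was lowest, the copy LOC100360573 stood at 60.3 CPM, against 31.9 and 41.5 in the other controls. All 12 rows of the family summed to 103, 138 and 136 CPM in the controls and to 166, 190.2 and 146 CPM in the preeclampsia libraries. The sums were apart between the groups, and their log2 fold change was 0.44 (SE 0.16), near that of the other members. Over the 6 libraries, the SD of the log2 of these values was 0.73 for the Rps12 row and 0.30 for the sum. This summing was chosen after the data had been seen.

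Rps10 and Rps10l1, a copy that RefSeq lists as a pseudogene, also share a family. Rps10 stood at 152, 130 and 140 FPKM in the controls and at 155, 194 and 187 FPKM in the preeclampsia libraries (0.37, SE 0.15). Rps10l1 stood at 91.0, 152 and 140 FPKM in the controls and at 189, 153 and 138 FPKM in the preeclampsia libraries (0.35, SE 0.20), with overlapping groups. The 6 rows of the family summed to 129, 158 and 157 CPM in the controls and to 197, 193 and 180.1 CPM in the preeclampsia libraries (0.38, SE 0.11). Of the remaining copies, Rps18l1 stood at 9.12, 10.1 and 9.38 FPKM in the controls and at 11.3, 11.8 and 11.01 FPKM in the preeclampsia libraries (0.28, SE 0.14). Rps19l1 was at or below 0.14 FPKM in every library, and it and 1 further copy did not pass the filter on low counts. With copies summed, 24 of the 32 families were apart between the groups in CPM, as were 24 of the 32 rows that name them. The summed rows need not all be processed copies. The Rps13 family holds a row that RefSeq names C7h12orf75. The Rps4x family holds Rps4y2, which ran from 1.73 CPM in control library 3 to 30.4 CPM in preeclampsia library 3. Rps27l was left out of the Rps27 family.

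**Figure D4:**
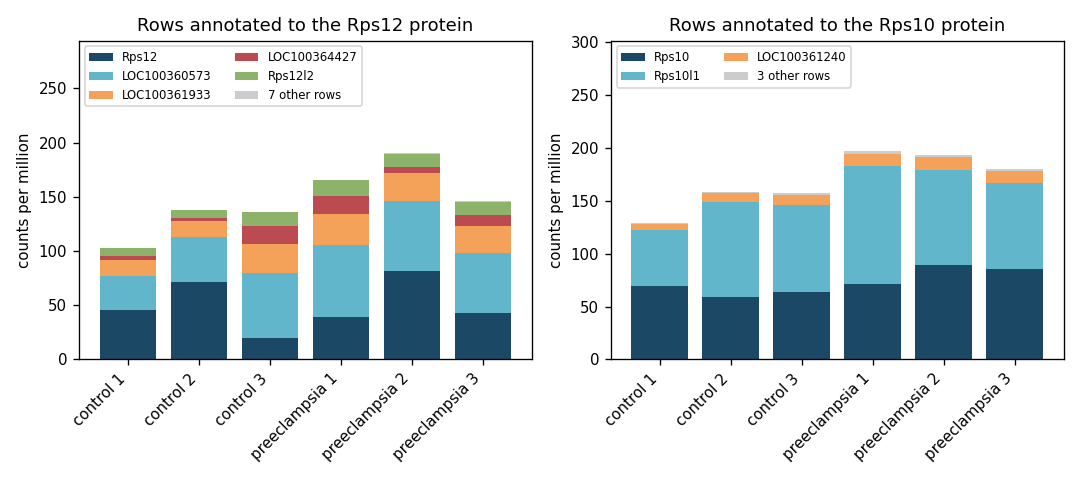
Bars stack the CPM (vertical axis) for rows annotated to the Rps12 protein (left) and the Rps10 protein (right) in each library. The share of the Rps12 row changes from 14.5% to 51.9% between libraries, while the summed height runs from 103 to 138 in the controls and from 146 to 190.2 in the preeclampsia libraries.

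Levels could not be ranked between genes with confidence. The length implied by a gene's counts and FPKM ran from 263 bases in Rps3a to 4439 bases in Rps4x, and in 7 members it exceeded the whole span of the gene. In Rps28 it was 2103 bases, with a span of 1370 bases. For the intronless mitochondrial gene ND1 the implied length was 13671 bases and the gene's length 955, the widest mismatch of the mitochondrial genes checked. In the others the implied length ran from 0.99 times the gene's length in ND5 to 2.45 times in COX1. The lengths behind FPKM thus differ from those of the mature mRNA in genes such as Rps28 and ND1. The high FPKM of Rps3a and the low FPKM of Rps28 therefore do not give the proportions of their mRNAs. Comparisons of one gene between libraries do not depend on this length.

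Other genes of the ribosome and its assembly were compared in the same fit. The cytosolic large subunit genes had a median log2 fold change of 0.39, with 49 of 50 above 0 and 0 called by edgeR. Further mRNAs known to carry the terminal oligopyrimidine motif, most of them translation factors, had a median of 0.26, with 15 of 16 above 0. The elongation factor gene Eef1a1 stood at 2600, 2451 and 2890 FPKM in the controls and at 3330, 3525 and 3394 FPKM in the preeclampsia libraries (0.39, SE 0.15), without overlap, and Eef2 had a log2 fold change of 0.36 (SE 0.13). The 56 assembly factors of the small subunit had a median of -0.03, with 25 above 0, and the 2 with the highest FPKM, Utp6 and Utp15, had log2 fold changes of -0.14 (SE 0.18) and 0.01 (SE 0.18). RNA polymerase I and rRNA gene factors had a median of 0.05 (14 of 18 above 0), among them Ncl, the nucleolin gene, at 0.01 (SE 0.22) and Rrn3 at 0.01 (SE 0.10).

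Genes that act on ribosomal protein mRNAs, such as Larp1 (-0.13, SE 0.15) and the S6 kinase gene Rps6kb1 (0.14, SE 0.15), had a median log2 fold change of -0.02, with 9 of 18 above 0. The mitochondrial small subunit proteins had a median of 0.07, with 21 of 28 above 0. A list of chaperones and modifiers of small subunit proteins had a median of -0.04, with 5 of 11 above 0. The 2 genes of that list called by DESeq2 were Rack1, the scaffold protein gene, and Nop53, and neither is a typical chaperone or modifier. A list of p53 and ribosome stress genes had a median log2 fold change of -0.34, with 3 of 10 above 0. All preeclampsia FPKM values lay below all control values in 1312 of the 15776 genes tested and in 5 of these 10. Among these, Mdm2, a ubiquitin ligase that ribosomal proteins can inhibit, stood at 139, 134 and 237 FPKM in the controls and at 99.6, 95.8 and 92.9 FPKM in the preeclampsia libraries (-0.80, SE 0.22), without overlap. The cyclin gene Ccng1 had a log2 fold change of -0.60 (SE 0.18). By edgeR 0 genes of any of these lists were called over all genes (adjusted p = 0.382 or above, the lowest in the large subunit). At an unadjusted p under 0.05, 31 of 50 large subunit genes and 5 of 16 oligopyrimidine mRNAs were higher, and 2 of 56 assembly factors were higher and 1 lower. Of the 10 p53 and ribosome stress genes, 4 were lower, where 799 of all 15776 genes tested were lower at that level. DESeq2 called 12 large subunit genes, 2 oligopyrimidine mRNAs (Eef2 and Rack1) and 0 of the assembly factors and of the p53 and ribosome stress genes. Differences between the lists were not tested.

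**Figure D5:**
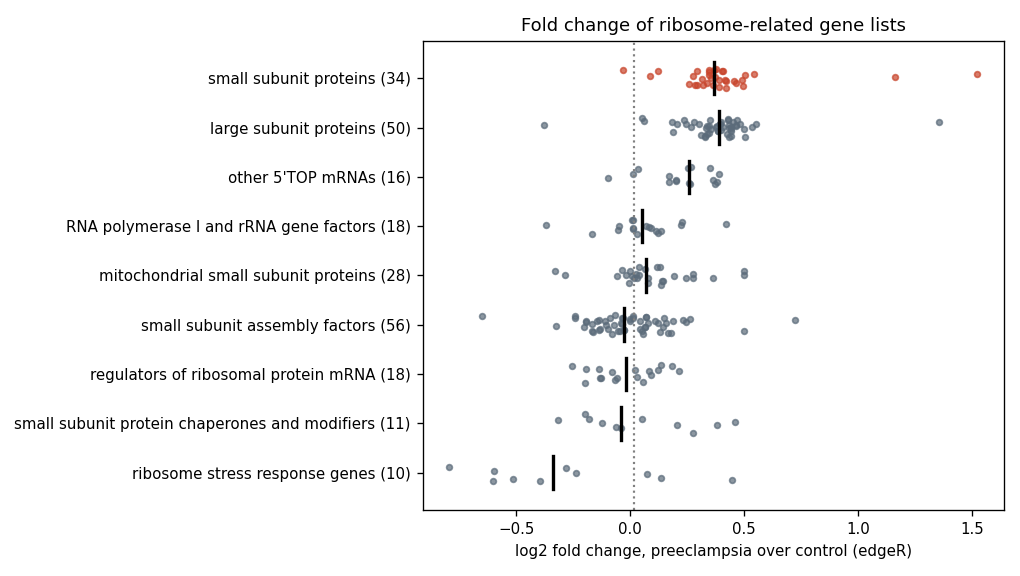
Each point is the edgeR log2 fold change of 1 gene, grouped by list with the number tested in brackets, the thick bar is the median of the list, and the dotted line is the median of all genes tested (0.01). The small and large subunit proteins have medians of 0.37 and 0.39, while the assembly factors have one of -0.03. The p53 and ribosome stress genes, labelled as ribosome stress response genes, have one of -0.34.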

How the data were processed

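Per the file headers, the table deposited by the authors holds counts and FPKM for each gene in each library. Per the labels' protocols, mRNA was enriched on oligo(dT) beads, and adapters carried unique molecular identifiers. Tools listed in the submitters' processing notes are StringTie 2.1.6, HISAT2 2.2.1, cutadapt 1.9 and FastQC. The genome build and any use of the identifiers in counting are not given in the sources used here. Coordinates are as the table gives them.

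In edgeR 4.0.16 (R 4.3.3), all 6 libraries entered 1 quasi-likelihood fit by group after filterByExpr and TMM scaling, and p-values were adjusted over all 15776 genes tested. A call is an adjusted p under 0.05. Total counts were 48402185 to 59193961 per library, and the biological coefficient of variation was 0.418, so the spread between libraries limited the precision. Every pair of libraries differed beyond sampling noise (chi-square over degrees of freedom of at least 140). FPKM values are as deposited. Alternatives were DESeq2 1.42.0, limma 3.58.1 on log2(FPKM + pseudocount), other scalings and filters, a replicate block, each library left out, and copies summed. Scripts were tested on simulated data.

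The members and lists were chosen with earlier results of these data known. Members described library by library were the 6 with the smallest p, the 2 highest and 2 lowest fold changes, the 3 highest and 3 lowest FPKM, and Rpsa, Fau, Rps27a, Rps27, Rps27l, Rps6, Rps3, Rps14, Rps19, Rps26 and Rack1. Of each other list, the genes called or the 2 with the highest FPKM were named. Rps12, Rps10, Rps10l1, Rps13, Rps18l1, Mdm2, the members given by range and the genes called by DESeq2 were chosen after their values were seen. Some genes that these rules cover are not reported here, though they stay in the fit and the counts.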

Additional observations from a re-analysis of the deposited data

How the results depend on the processing

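With 3 libraries per group, 1 library could move single genes. The number of small subunit genes called was 0 in edgeR under all scalings, filters and left-out libraries, and with limma, and was 6 with DESeq2. The count above 0 was 32 or 33 of 34 with each library left out and 35 of 36 with no filter, and the median log2 fold change lay between 0.32 and 0.42. It lay between 0.35 and 0.38 over the other scalings, DESeq2, limma, no filter and copies summed. The count at an unadjusted p under 0.05 was 23 in the reported fit and between 9 and 19 in the smaller fits with a library left out. It was 13 with limma and no filter. Over the other scalings, limma with a filter, no filter in edgeR, DESeq2 and copies summed it was between 16 and 28. The smallest adjusted p of a member in edgeR and limma lay between 0.274 and 0.759. The count of genes whose groups did not overlap lay between 24 and 29 over the same left-out libraries, was 28, 28 and 25 with RLE, upper-quartile and no composition scaling, and was 28 with TMM. The ratio of Rps27l to Rps27 differed by -0.33 to -0.49 with a library left out, where the exact p cannot go below 0.2. Of 335 single-gene results under an alternative, 7 changed sign, all with a library left out. Rps21 was at -0.022, -0.00029 and -0.015 without control library 1 and preeclampsia libraries 1 and 3, Rps12 at -0.081 and -0.17 without control library 3 and preeclampsia library 2, and Rps27l at 0.059 and 0.021 without control library 3 and preeclampsia library 1. With each library left out, Rps21 ran from -0.022 to 0.29, Rps12 from -0.17 to 0.75 and Rps27l from -0.092 to 0.059, and the cause was not tested. In the fit with the replicate block, 0 members were called, 33 of 34 were above 0, the median was 0.37 and 13 had an unadjusted p under 0.05. The deviations of same-numbered libraries from their group means correlated at 0.07, -0.0078 and 0.05, so the numbers were not taken as pairs.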
